A study of Juglans regia with 21 samples.

Results

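Dehydrins and late embryogenesis abundant (LEA) proteins are hydrophilic, largely disordered proteins that accumulate in maturing seeds and in plant tissue short of water, where they are thought to protect membranes and other proteins during drying. Many of their genes respond to abscisic acid and, in the embryo, to regulators such as ABI3 and ABI5. The 4 genes described here are dehydrin ERD14 (Jr4DG00147900), dehydrin 2 (Jr4SG00068600), a gene for a DC-8-like embryonic protein (Jr5SG00047500) and an 18 kDa seed maturation protein gene (Jr5DG00028300), out of 31425 genes in the deposited table. They were taken by ID, with product names from the table, and chosen with their read counts over all 7 stages known, so their levels are given as a description and without tests.

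The RNA came from pellicle, the thin skin that encloses the kernel, of field-grown walnut (Juglans regia) of the cultivar Xinwen179. Pellicles were sampled at 8, 9, 11, 13, 15, 17 and 19 weeks after pollination, named here 8W to 19W. Each stage has 3 libraries, 21 in all, and there is no treatment or second genotype. Whether the 3 libraries of one stage stem from different trees is not said in the labels, and their spread may be technical, also where p-values rest on it. Libraries held 13144713 to 17878761 counted reads. Levels are scaled CPM, read counts brought to a common library size with TMM factors, as mean ± SD of 3 libraries, and levels are compared between genes only as the deposited FPKM, which divides by transcript length. In bulk tissue, fewer cells of a type and less RNA per cell cannot be told apart.

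The tissue label was compared with marker lists for seed coat and kernel. Of 35 seed coat genes, 14 had a mean of at least 10 scaled CPM at 8W and 9 at 19W. Anthocyanidin reductase (Jr5DG00075400), an enzyme of proanthocyanidin synthesis, was at 37.1 ± 1.41 scaled CPM at 8W and 146 ± 25.2 at 19W, and the homologue of the ovule and seed coat regulator AGL11 (Jr2DG00016900) was at 458 ± 13.3 and 935.5 ± 62.7. By number of genes, most of those tested went the other way. Between 8W and 19W, 5 of the 24 seed coat genes tested rose and 13 fell (edgeR's quasi-likelihood test, adjusted p under 0.05). Of all genes tested, 39.0% rose and 38.8% fell. The median log2 change of the 24 was -0.61. By summed level, the 35 seed coat genes were nevertheless higher in the oldest pellicles, with 1247 ± 92.5 scaled CPM (19W) against 859 ± 14.8 (8W). This sum includes AGL11, and its lowest stage mean was 584 ± 22.2 (17W). Storage protein and oil body genes of the kernel were also present. Their 23 members summed to 313 ± 77.9 scaled CPM at 8W, 18920 ± 8043 at 11W and 22371 ± 2650 at 19W.

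Both dehydrins carry the dehydrin domain PF00257, and both were present in the youngest pellicles, at 543 ± 26.3 FPKM for ERD14 and 238 ± 16.5 FPKM for dehydrin 2 at 8W. ERD14 lies on chromosome 4D from 26861852 to 26862908 on the plus strand, with a transcript of 618 bases and 453613 reads over all libraries. Dehydrin 2 lies on 4S from 7106906 to 7107951 on the minus strand, with 591 bases and 249541 reads. The sources used here do not give the genome build. No other annotated gene overlaps either of them, nor the DC-8-like or seed maturation protein genes. The surroundings of both dehydrins carry several of the same product names in opposite orientation. ERD14 follows a 4-coumarate-CoA ligase-like gene and a lysine histidine transporter-like 8 gene and precedes 2 alcohol dehydrogenase-like 7 genes and a BAG6 gene. Along 4S, dehydrin 2 follows a BAG6 and an alcohol dehydrogenase-like 7 gene and precedes 2 lysine histidine transporter-like 8 genes and a 4-coumarate-CoA ligase gene. Names without a match were a transmembrane amino acid transporter family gene near ERD14 and a neutral ceramidase-like gene next to dehydrin 2. The 3 genes on each side of either dehydrin, these included, had 7 to 22553 reads each over all libraries.

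**Figure D1:**
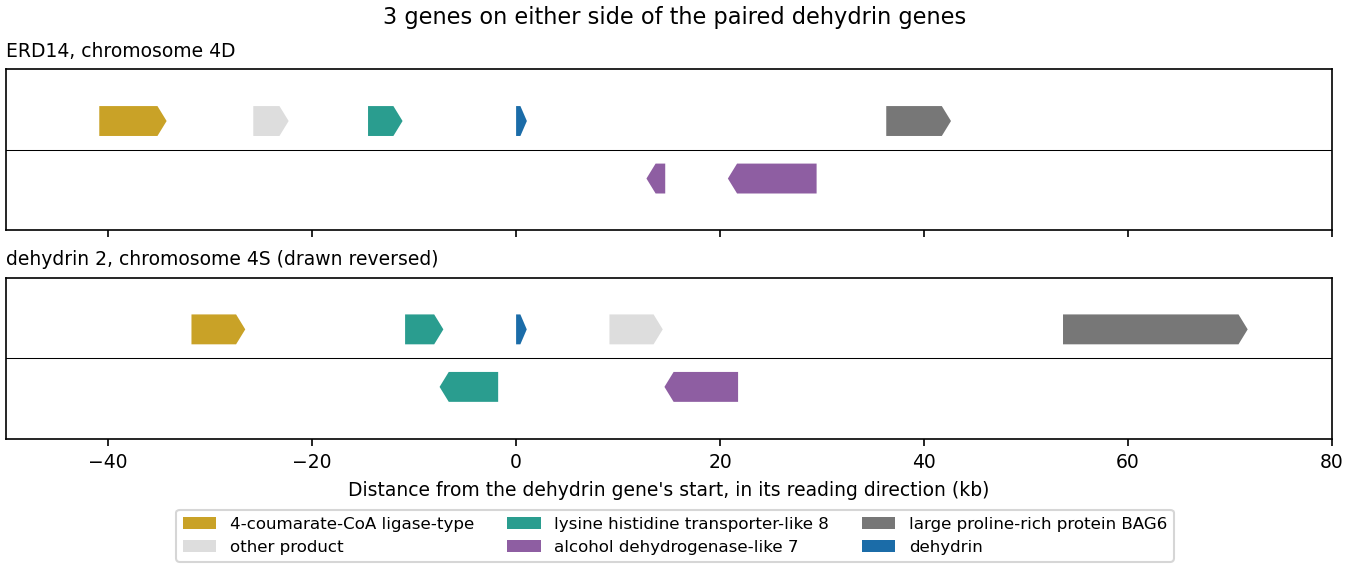
Map of the 3 annotated genes on each side of ERD14 and of dehydrin 2, in kb from the dehydrin's start in its reading direction, with arrows above the line in the same direction as the dehydrin and arrows below it in the opposite one. Ligase and transporter genes lie before both dehydrins, and alcohol dehydrogenase-like and BAG6 genes after both.

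ERD14, named after a gene of Arabidopsis that responds early to dehydration, had its largest step early and its highest level at 17W. Its libraries were at 315, 293 and 296 scaled CPM at 8W, at 1286, 1228 and 1169 at 9W and at 1193, 1385 and 1511 at 11W. They were at 1366, 1279 and 1517 at 13W, at 2146, 2289 and 2033 at 15W, at 2360, 2379 and 2447 at 17W and at 1792, 1741 and 1719 at 19W. The 3 libraries of 8W were the lowest of all 21, those of 17W the highest, and the libraries of 9W, 11W and 13W overlapped. From 8W to 9W the mean went from 301 ± 11.8 to 1228 ± 58.6, a log2 change of 2.03 (SE 0.0856) and 4.08-fold. From 9W to 13W the level stood nearly still, with log2 changes of 0.15 and 0.03, and in FPKM the mean was slightly lower at 13W (2178) than at 11W (2267). A second step of 0.64 on the log2 scale (SE 0.0825) led to 15W, and from 17W to 19W the level decreased by 0.45 (SE 0.0823). At 19W it was 5.81-fold its 8W level, with a log2 change of 2.54 (SE 0.0872).

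Ordered from low to high, the stages of ERD14 were 8W, 9W, 11W, 13W, 19W, 15W and 17W. Neighbours in that order overlapped at 9W and 11W and at 11W and 13W, and the other neighbours did not overlap. Peaks at 17W were found in 17.6% of the 21707 genes tested across stages.

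Dehydrin 2 had its own course, up at one stage and down at the next. Its libraries were at 135, 123 and 121 scaled CPM at 8W, at 704, 716 and 662 at 9W and at 481, 490 and 615 at 11W. They were at 1043, 824 and 1204 at 13W, at 666, 768 and 668 at 15W, at 1538, 1442 and 1564 at 17W and at 1454, 1213 and 1142 at 19W. Stages 9W, 13W and 17W stood above the stages on either side of them, and only the libraries of 17W and 19W overlapped among successive stages. The mean went from 126 ± 7.41 at 8W to 694 ± 28.4 at 9W, a log2 change of 2.46 (SE 0.122). It then moved by -0.39, 0.95, -0.55, 1.11 and -0.25 on the log2 scale, with standard errors of 0.115 to 0.116. The same order of ups and downs in the stage means was found in 7.69% of the genes tested, and the deposited FPKM of dehydrin 2 follow it too. At 19W the mean was 1270 ± 163 scaled CPM, 10.05-fold its 8W level, with a log2 change of 3.33 (SE 0.127).

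Ordered from low to high, the stages of dehydrin 2 were 8W, 11W, 9W, 15W, 13W, 19W and 17W. Overlapping neighbours in that order were 9W and 15W, 13W and 19W, and 19W and 17W. The stage with the widest spread was 13W, where the SD was 191 scaled CPM around a mean of 1024.

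Per transcript length, ERD14 exceeded dehydrin 2 in all 21 libraries, by a factor that went up and down with the stage. The FPKM ratio of ERD14 to dehydrin 2 started at 2.28 ± 0.0508 (8W) and went through 1.69 ± 0.0530 (9W), 2.48 ± 0.198 (11W) and 1.31 ± 0.150 (13W) to 2.95 ± 0.119 (15W). The last stages had 1.51 ± 0.0573 (17W) and 1.33 ± 0.135 (19W). The ratio was thus highest at 8W, 11W and 15W, and the libraries of these 3 stages, all at 2.23 or more, stood clear of those of the other 4, all at 1.75 or less. Taken within a library, the ratio does not depend on how libraries are scaled. Reads of near-identical copies cannot be told apart without the counting rules, which the sources used here do not state, and the part of this in the ratio was not tested.

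**Figure D2:**
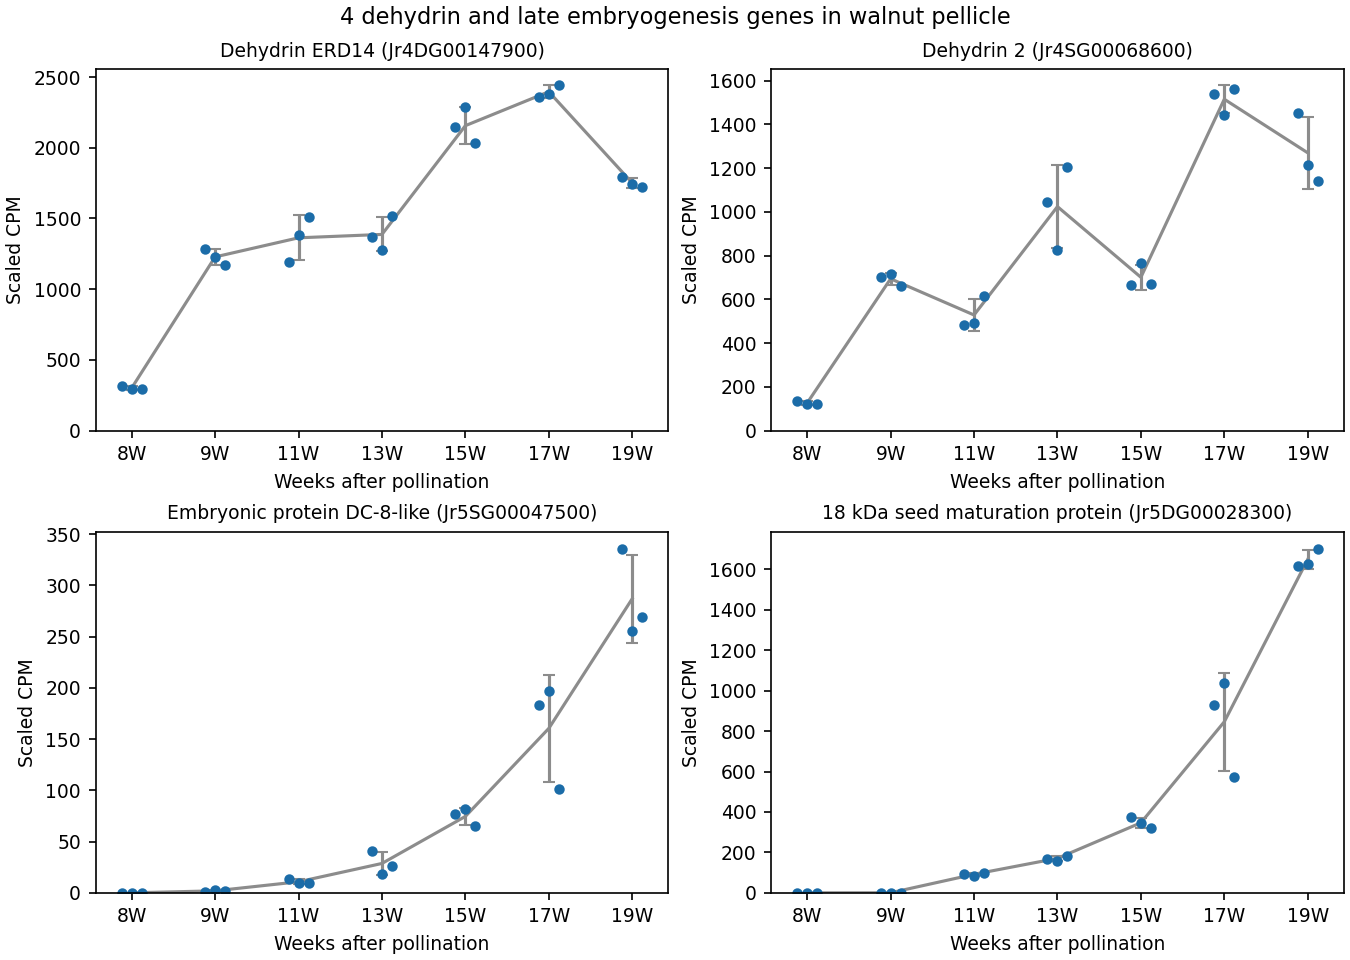
Scaled CPM (linear axes from 0) of the 4 genes at 7 stages from 8 to 19 weeks after pollination, with each library as a point and the mean ± SD of 3 libraries as a line. ERD14 and dehydrin 2 have their highest mean at 17W, whereas the DC-8-like and seed maturation protein genes have it at 19W.

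**Figure D3:**
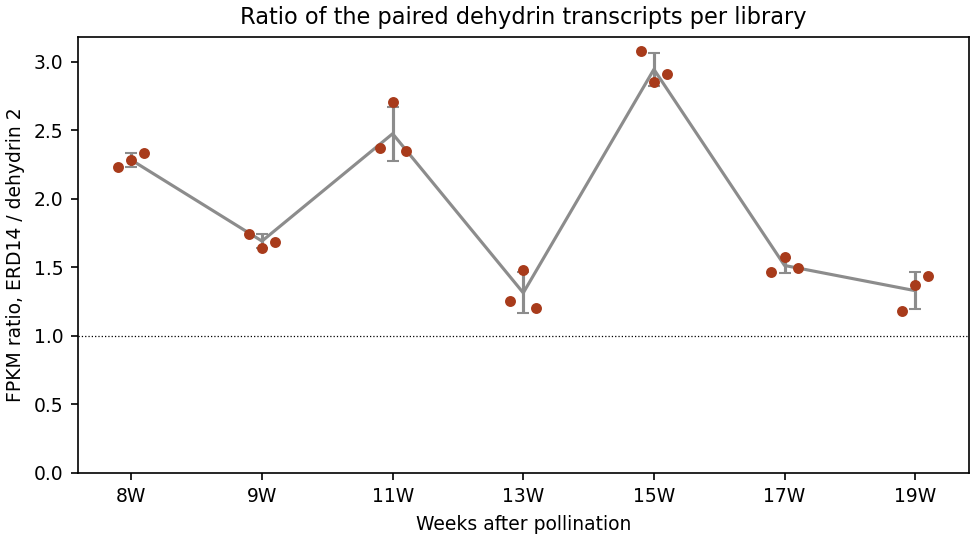
FPKM ratio of ERD14 to dehydrin 2 in each library (points), with mean ± SD per stage (line) and a dotted line at equal levels. The stage means lie between 1.31 at 13W and 2.95 at 15W.

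The DC-8-like gene, related by name to an LEA protein of carrot embryos, went from no reads at 8W to 263.5 ± 38.4 FPKM at 19W. It lies on chromosome 5S from 4518962 to 4520023 on the plus strand, with 961 transcript bases, no Pfam domain in the table and 21959 reads in all. All 3 libraries of 8W had 0 reads, which allows up to 0.191 scaled CPM per library. Libraries were at 1.19, 2.55 and 2.11 scaled CPM at 9W, at 13.7, 9.52 and 9.13 at 11W and at 40.6, 18.9 and 26.5 at 13W. They were at 76.6, 81.5 and 65.6 at 15W, at 183, 197 and 101 at 17W and at 336, 256 and 269 at 19W. Every library was above every library of the stage before it, although the spread within a stage was wide at 13W and 17W. Log2 changes from one stage to the next, starting at 9W, were 2.47 (SE 0.459), 1.41 (SE 0.333), 1.38 (SE 0.293), 1.10 (SE 0.275) and 0.84 (SE 0.267). The mean at 19W, 287 ± 42.8 scaled CPM, was at least 1576-fold higher than the 8W floor of 3 reads per library.

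The 18 kDa seed maturation protein gene, whose domain PF03760 marks the LEA_1 family, had at most 8 reads in any library up to 9W and a level of 1267 ± 40.8 FPKM at 19W. It lies on chromosome 5D from 2639961 to 2641672 on the plus strand, with 1149 transcript bases and 121129 reads in all. Its libraries held 6, 3 and 0 reads at 8W and 8, 8 and 4 at 9W, against 1360, 1282 and 1458 at 11W. In scaled CPM the means were 0.185 ± 0.182 and 0.353 ± 0.110 at 8W and 9W, which overlapped, and 91.7 ± 6.74 at 11W, a log2 change from 9W of 7.97 (SE 0.299) and 259.5-fold. Libraries were then at 169, 158.5 and 184.5 scaled CPM at 13W and at 373, 346 and 321 at 15W. They were at 927, 1037 and 574 at 17W and at 1617, 1628 and 1702 at 19W. From 11W on each stage stood above the one before it with no overlap, by log2 changes of 0.90, 1.02, 1.29 and 0.96, with standard errors of 0.159 to 0.163. Over the whole series the log2 change was 13.08 (SE 0.322), a value that rests on the 9 reads of 8W and went to 13.97 without replicate 1 of 8W and to 12.48 without replicate 3 of 8W.

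Stage means that go up at every step were found in 0.456% of the genes tested, the DC-8-like and seed maturation protein genes among them, and a highest mean at 19W in 12.4%. For the seed maturation protein, the libraries of the first step, 8W to 9W, overlapped (log2 change 0.94, SE 0.836). The balance between the 2 genes differed between 9W and 11W. The FPKM ratio of the seed maturation protein to the DC-8-like gene was 0.171 ± 0.0973 at 9W and 7.34 ± 1.59 at 11W. At 9W it rests on 4 to 8 reads per library for the seed maturation protein and 24 to 47 for the DC-8-like gene. From 13W to 19W the stage means lay between 3.90 ± 0.309 and 5.45 ± 1.81, with single libraries of 13W from 3.48 to 7.03.

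Set side by side, the 4 genes differed between successive stages in most cases with no overlap between libraries, and so did most genes tested. The libraries of 8W and 9W did not overlap for 3 of the 4, against 73.0% of all genes tested in either direction. For 11W against 9W it was 3 of 4 beside 68.5%, with dehydrin 2 lower and the DC-8-like and seed maturation protein genes higher, and for 13W against 11W it was 3 of 4 beside 68.4%. For 15W against 13W it was 4 of 4 beside 59.6%, for 17W against 15W 4 of 4 beside 64.7%, for 19W against 17W 3 of 4 beside 59.8%, and for 19W against 8W 4 of 4 beside 80.4%. These shares stand beside the counts as background only, since the genes were chosen on these libraries.

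Together the 4 genes took 0.0477% of all counted reads at 8W and 0.438% at 19W, with the highest share, 0.469%, at 17W. Their make-up shifted late. At 17W the FPKM were 3696 ± 107 for ERD14, 2445 ± 144 for dehydrin 2, 700.5 ± 193 for the seed maturation protein and 159 ± 50.1 for the DC-8-like gene. At 19W they were 2501 ± 43.4, 1896 ± 236, 1267 ± 40.8 and 263.5 ± 38.4 in the same order. Among the 35 genes that the table names as dehydrin or LEA, or that hold a Pfam domain of these families, the 4 made up 73.8 ± 0.645% of the summed FPKM at 8W, 91.3 ± 0.466% one stage later and 77.5 ± 0.879% at 19W. The share of ERD14 and dehydrin 2 in that sum went from 91.2 ± 0.463% at 9W to 57.4 ± 1.54% at 19W. The sum also holds other genes with the dehydrin domain, such as Jr4DG00054400, which are not in this share.

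Within some stages the libraries differed in these genes and in the kernel list alike, and within others they did not. In replicate 3 of 17W the DC-8-like and seed maturation protein genes were at 0.630 and 0.679 of their stage means, while ERD14 and dehydrin 2 were at 1.02 and 1.03. The summed kernel list was at 0.721 of its stage mean in the same library. At 11W the DC-8-like gene was at 1.27, 0.883 and 0.847 of its stage mean in replicates 1 to 3 and the kernel list at 1.49, 0.805 and 0.708, so replicate 1 was highest in both, while the seed maturation protein was at 1.02, 0.918 and 1.06. At 15W, replicate 2 was highest in both, at 1.09 for the DC-8-like gene and 1.19 for the kernel list. At 13W the order differed: replicate 1 held the DC-8-like gene at 1.42 and the kernel list at 0.557 of the stage mean, and replicate 3 held them at 0.924 and 1.64.

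Kernel markers also moved across the stages, and single kernel genes differed in their course. Of the 23 kernel genes, 6 had a mean of at least 10 scaled CPM at 8W, 18 at 11W and 19 at 19W, and 6, 3 and 4 had no reads at these stages. The summed list ranged from 238 to 394 scaled CPM at 8W, from 1001 to 1388 at 9W and from 13392 to 28147 at 11W. It then ranged from 5249 to 15457 at 13W, from 9894 to 13145 at 15W, from 4051 to 6657 at 17W and from 19323 to 24120 at 19W. Thus the kernel sum at 17W lay below that at 11W in every library, whereas the seed maturation protein was higher in every library of 17W (574 to 1037 scaled CPM) than of 11W (84.1 to 97.2), as was the DC-8-like gene. The sum was carried by few genes, since the 4 with the most reads made up 85.6% of it at 11W and 56.0% at 17W. Gene by gene, 11 of the 21 kernel genes with reads had a higher mean at 17W than at 11W and 9 a lower one. Peroxygenase 1 (Jr1DG00194100), an oil body enzyme named here after its values were seen, went up at every step, with mean scaled CPM of 4.24 (8W), 154 (11W), 221 (17W) and 518 (19W). From 9W to 11W and from 17W to 19W the kernel sum and both genes were higher at the later stage. The part of kernel RNA in the levels was not tested.

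**Figure D4:**
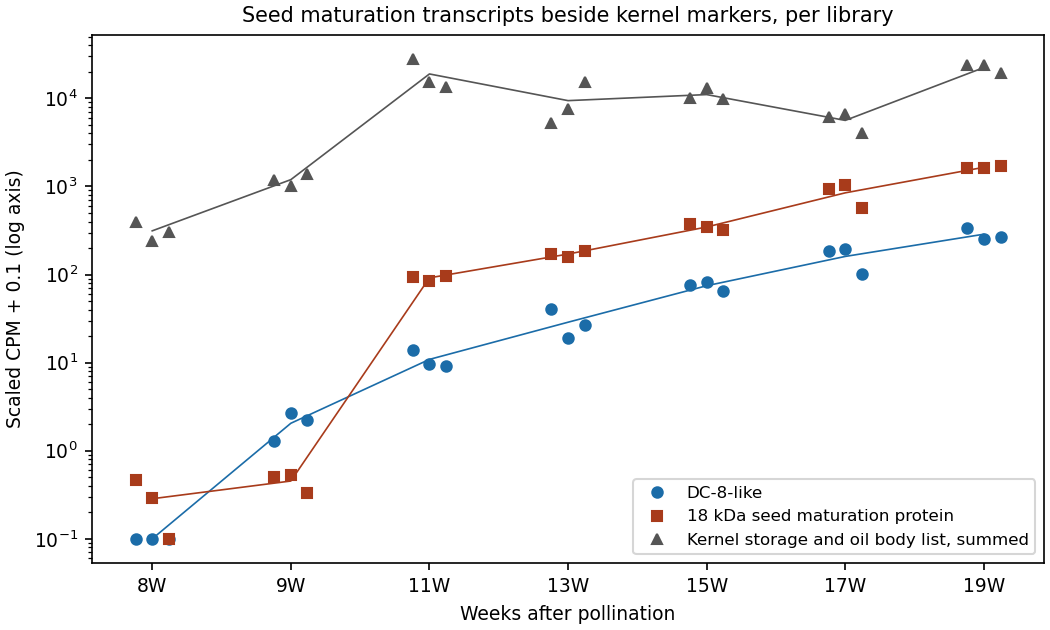
Scaled CPM + 0.1 on a log axis of the DC-8-like gene, the 18 kDa seed maturation protein gene and the sum of 23 kernel storage and oil body genes in each library (points) with stage means (lines). The kernel sum reaches 18920 at 11W and is 5619 at 17W, while the stage means of the other 2 series are higher at each later stage.

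Other dehydrin and LEA genes were tested with edgeR's quasi-likelihood test, with p-values adjusted by Benjamini-Hochberg over all 21707 genes and a threshold of 0.05. The table names 27 besides the 4, of which 21 passed the filter on low counts. Over the 7 stages 20 of the 21 changed, beside 97.7% of all genes tested. At 19W against 8W, 17 rose and 2 fell, beside 39.0% and 38.8% of all genes, and the median log2 change was 5.15 for the 21 and -0.01 for all genes. With the 4 genes that had no reads at 8W set at their lower bound, the median was 4.96. The highest mean was at 19W for 12 of the 21 and at 17W for 4, beside 12.4% and 17.6% of all genes tested.

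Between successive stages, more of these 21 genes rose than fell at each step but 13W, and differences between steps were not tested. At 9W against 8W, 8 rose and 1 fell, beside 34.4% and 31.1% of all genes. At 11W against 9W, 12 rose and 2 fell, beside 34.3% and 31.6%, with a median log2 change of 1.88. At 13W against 11W the balance was the other way, with 3 that rose and 7 that fell beside 32.1% and 35.0%, and a median of -0.46. At 15W against 13W, 8 rose and 3 fell, beside 24.8% and 26.3%. At 17W against 15W, 10 rose while 4 fell, beside 29.3% and 30.8%, a count of 14 that went to 7 without replicate 1 of 17W, 8 without replicate 1 of 15W and 9 without replicate 2 of either stage. At 19W against 17W, 13 rose and 5 fell, beside 28.5% and 26.1%, with a median of 0.78. The summed kernel list given above was also higher at 11W than at 9W and at 19W than at 17W, and its part in these counts was not tested.

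A run of 5 genes with the product name LEA protein lies on chromosome 4S between 24705541 and 24814402, and 4 of them reached 10 scaled CPM. Jr4SG00137400 was at 1.60 ± 0.843 scaled CPM at 8W, 143 ± 16.0 at 11W and 277 ± 23.6 at 19W, and rose by 7.45 on the log2 scale between 8W and 19W (adjusted p = 9.05e-14, edgeR). Jr4SG00137700 and Jr4SG00137800, both with the dehydrin domain, stayed between 4.92 and 8.53 scaled CPM from 11W to 17W and reached 44.9 ± 8.91 and 44.3 ± 7.69 at 19W. Jr4SG00137700 had no reads at 8W and was at least 246.5-fold higher at 19W than the floor of 3 reads per library. Jr4SG00137300 also had none at 8W, and at 19W was at 19.1 ± 4.28 scaled CPM, at least 105-fold higher. Reads of near-identical copies in such a run may not be told apart.

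Proteins of the D-34 type, a separate LEA family known from cotton seed, showed both a steep and a shallow course. Jr1DG00182600 had 2 reads over the libraries of 8W and was at 28.9 scaled CPM at 17W and 205 ± 8.12 at 19W, 5065 times the 8W level with a 95% counting interval of 1402 to 41819. The D-like gene Jr4SG00167600, with the same PF04927 domain, was at 7.73 ± 0.544 at 8W and 63.3 ± 1.07 at 19W and rose by 3.03 on the log2 scale (adjusted p = 6.77e-16, edgeR). A second DC-8-like gene, Jr1DG00038900, was at 9.58 ± 2.86 scaled CPM at 11W, 1.19 at 13W and 15.0 ± 2.16 at 19W, so it did not share the unbroken climb of Jr5SG00047500.

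Members of the LEA_2 type are less hydrophilic than the other families. Those that reached 10 scaled CPM included both small changes and a highest level before 19W. Below that level, Jr1SG00037300 (no reads at 8W, 9.98 ± 2.71 scaled CPM at 19W) and Jr6DG00134700 (0.164 and 3.16) were highest at 19W. Jr6DG00134800, also below it, was at 1.51 and 1.41 at these stages. The Lea14 homolog Jr1DG00216100 was at 233.5 ± 11.0 scaled CPM at 8W and 202 ± 9.78 at 19W, and fell by 0.21 on the log2 scale (adjusted p = 0.00704, edgeR). Jr2SG00108100 rose by 0.67 (adjusted p = 0.000327, edgeR), from 6.33 ± 0.846 to 10.05 ± 0.492 scaled CPM, with its highest mean, 18.2, at 17W. Jr6DG00134100 was at 14.7 scaled CPM at 17W and 7.60 ± 0.828 at 19W, from 1 read at 8W. Outside the LEA_2 type, the 2 genes named after Arabidopsis At5g17165 went opposite ways. Jr3DG00218200 fell from 25.6 ± 2.89 to 12.8 ± 0.669 scaled CPM (adjusted p = 5.26e-07, edgeR), and Jr3SG00023500 rose from 8.12 ± 2.65 to 18.9 ± 2.11 (log2 change 1.22, adjusted p = 2.63e-05, edgeR).

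Another 3 genes found by Pfam domain rather than by product name reached a stage mean of 10 scaled CPM. They were added after their values were seen and are described without a test. Jr4DG00054400 has the dehydrin domain and no product name. It had 2 reads at 8W and 0 at 9W, and a mean of 41.4 ± 25.5 scaled CPM at 11W. The mean was lower at 13W, with 13.98 ± 8.84. It then went to 71.9, 176 and 504 ± 16.0 at 15W, 17W and 19W. Jr5SG00170700, named SLE1 and of the LEA_5 family, was at 0.564 ± 0.0742 at 8W and 40.9 ± 3.55 at 19W. The ARG2-like gene Jr4SG00094200 of the LEA_3 family had its highest mean, 95.2 ± 34.4, at 11W and was at 9.54 ± 1.64 at 19W. Jr7DG00018900, with the LEA_1 domain PF03760, was found in the same way but stayed below 10 scaled CPM. Its highest mean was 0.834 ± 0.322 at 9W.

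**Figure D5:**
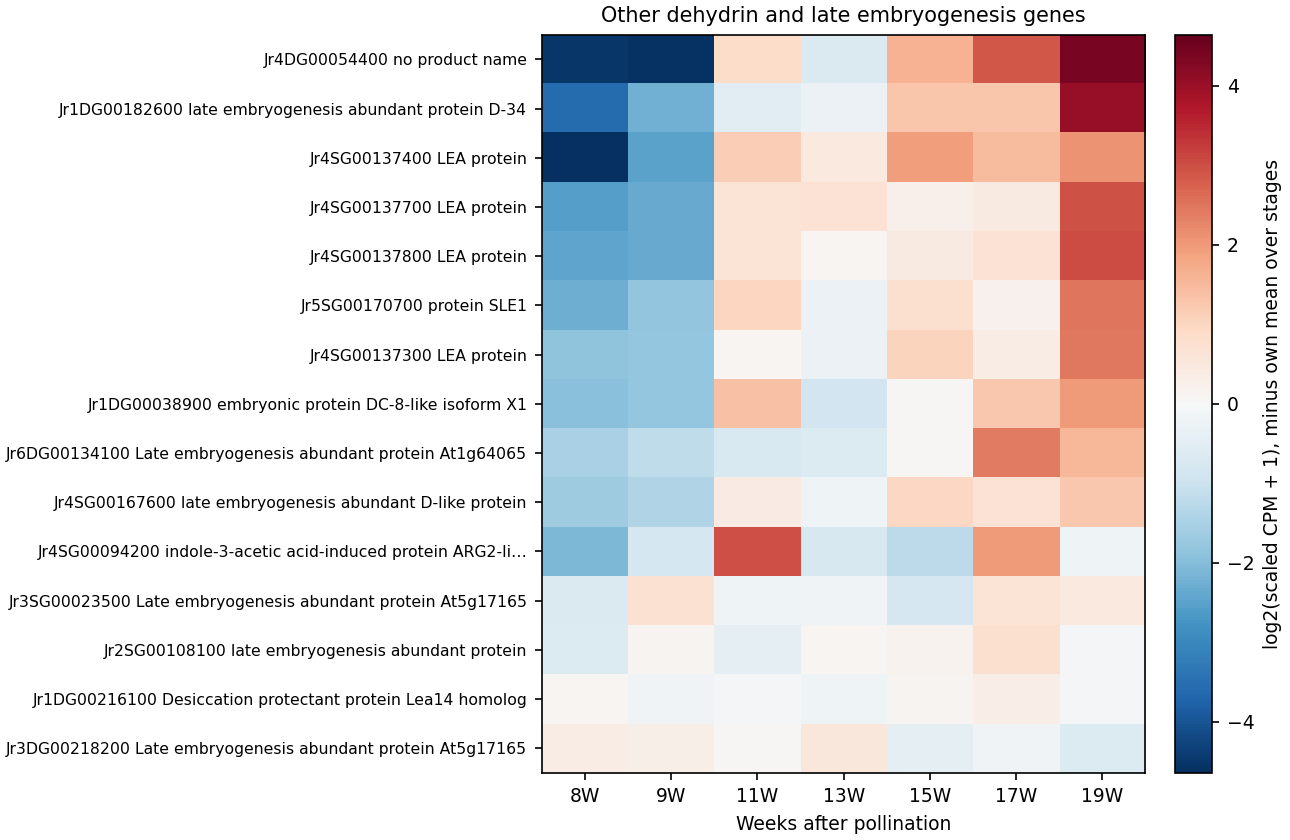
Heat map of the other dehydrin and LEA genes with a stage mean of at least 10 scaled CPM (rows) at 7 stages (columns), coloured by log2(scaled CPM + 1) minus the gene's own mean over stages, with red above and blue below. Most rows are darkest red at 19W, and the ARG2-like gene is reddest at 11W.

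Genes matched by product name to abscisic acid and seed maturation regulators were tested in the same way. Besides genes named ABI3 and ABI5 they include genes named TGA-like and AP2/B3-like, and a link of any of them to LEA genes was not tested. Of 20 tested in the abscisic acid and seed maturation list, 15 rose and 1 fell at 19W against 8W, beside 39.0% and 38.8% of all genes tested, and the median log2 change was 1.17 against -0.01 for all genes. Of the 2 genes named ABI3, the one with more reads, Jr2DG00137500, a seed maturation regulator, was at 6.24 ± 2.67 scaled CPM at 8W, had its highest mean of 223.5 ± 74.6 at 11W and was at 135 ± 12.1 at 19W (log2 change 4.43, adjusted p = 1.16e-09, edgeR). The ABI5-like gene Jr5SG00008200 started at 59.3 ± 5.81 scaled CPM (8W), with 238 (15W), 26.9 (17W) and 139 ± 6.09 (19W) later. The gene named ABSCISIC ACID-INSENSITIVE 5 itself, Jr5DG00011800, has fewer reads and was added after its values were seen. Its mean went from 0.912 ± 0.147 scaled CPM (8W) down to 0.344 (9W). Each later stage had a higher mean, up to 44.2 ± 3.74 (19W). Between 8W and 19W its log2 change was 5.59, given without a test. Of 3 genes named ABI5-like protein 5, Jr3SG00171200 rose by 0.83 between 8W and 19W (adjusted p = 6.35e-09, edgeR) and Jr8SG00042200 by 1.11 (adjusted p = 4.97e-12, edgeR), and Jr3DG00039900 fell by 0.39 (adjusted p = 4.86e-06, edgeR).

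In the list of cold and drought regulators, 12 of 16 tested rose and 3 fell at 19W against 8W, beside 39.0% and 38.8% of all genes, and the median log2 change was 2.01. CBF transcription factor 2 (Jr2DG00092800), of a family that activates cold-response genes, was at 2.69 ± 1.14 scaled CPM at 8W, with 309 (15W), 1070 (17W) and 928.5 ± 124 (19W) later (log2 change 8.41, adjusted p = 1.02e-11, edgeR). ERF039-like (Jr2DG00011000) rose by 7.15 (adjusted p = 4.28e-18, edgeR), from 2.10 ± 0.607 to 302 ± 22.7 scaled CPM, and ERF1 (Jr5DG00202800) by 4.87 (adjusted p = 5.22e-10, edgeR). Of 2 genes named inducer of CBF expression 1, Jr6SG00014000 fell by 2.25 (adjusted p = 5.53e-12, edgeR), from 128 ± 3.81 to 27.0 ± 1.66 scaled CPM, and Jr6DG00000800 was at 9.73 and 10.7 scaled CPM (log2 change 0.14, adjusted p = 0.382, edgeR).

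Other genes linked to drying were mixed. Of 10 tested desiccation and dormancy genes, 8 rose and 0 fell at 19W against 8W, beside 39.0% and 38.8% of all genes (median log2 change 2.23), and the 2 left did not pass the test. A desiccation-related protein PCC13-62-like gene, Jr1DG00106400, went from 61.1 ± 3.88 to 351 ± 27.5 scaled CPM (log2 change 2.52, adjusted p = 6.76e-06, edgeR), and an auxin-repressed protein gene, Jr5SG00048000, from 973 ± 128 to 2565 ± 257 (log2 change 1.40, adjusted p = 2.05e-12, edgeR). Jr5DG00057900, of the same name, was at 393 ± 35.8 and 350.5 ± 49.5 (adjusted p = 0.126, edgeR), and a dormancy-associated protein homolog 3 gene (Jr4DG00024400) rose by 0.46 (adjusted p = 7.5e-05, edgeR). Of 41 genes for protective sugars and seed peroxiredoxin, 27 rose and 12 fell, beside the same shares of all genes (median 2.29). Of 4 genes named galactinol-sucrose galactosyltransferase 2, an enzyme of raffinose synthesis, 3 were tested, and they went different ways. Jr5SG00030200 rose from 387 ± 15.4 to 1194 ± 119 scaled CPM while Jr5DG00033900 fell from 944 ± 225.5 to 310.5 ± 13.7 and Jr6DG00014400 fell from 13.6 to 1.58. Of the trehalose-phosphate synthase genes, the 2 with the most reads, Jr3SG00092700 and Jr6DG00161100, rose by 3.57 and 1.44 (adjusted p = 1.28e-19 and 6.7e-13, edgeR).

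For comparison, 17 of 19 tested kernel genes rose and 1 fell at 19W against 8W (median log2 change 8.00), beside 39.0% and 38.8% of all genes. The kernel gene with the most reads, for a vicilin-like protein (Jr1DG00211500), was at 4992 ± 1908 scaled CPM at 11W, 1799 at 17W and 10750 ± 1534 at 19W. Legumin B (Jr1DG00199500) had 5779 ± 2554 scaled CPM at 11W, 507 (17W) and 2667 ± 383 (19W). The seed storage protein gene Jr2DG00249800 was at 2357 ± 293 and the 11S globulin gene Jr2SG00188600 at 1482 ± 331 at 19W. Among seed coat genes, both genes named TRANSPARENT TESTA 16 fell, by 2.58 for Jr3DG00159800 (adjusted p = 1.89e-16, edgeR) and 1.77 for Jr3SG00077700 (adjusted p = 8.4e-08, edgeR), and the WD40 gene Jr3SG00045500 was at 56.9 ± 2.74 and 56.3 ± 3.16 scaled CPM at 8W and 19W (adjusted p = 0.854, edgeR).

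Genes whose stage profile lay nearest to each of the 4 were found by the root mean square difference of 7 stage means of log2(scaled CPM + 1), each relative to its own mean, among 18185 tested genes with a product name. Nearest to ERD14 were a UDP-glycosyltransferase 71K2-like gene (Jr2DG00101100), a bromodomain and PHD finger gene (Jr3DG00081700) and an AUXIN SIGNALING F-BOX 2-like gene (Jr2DG00003000), each at 0.28. A xyloglucan endotransglucosylase gene (Jr6DG00108000) and an aldo-keto reductase gene (Jr4DG00070300) followed at 0.29 and 0.30. Dehydrin 2 lay 0.43 from ERD14. Its own nearest genes were glutamine synthetase (Jr2SG00045800, 0.25), GDP-L-galactose phosphorylase 1 of ascorbate synthesis (Jr6DG00193800, 0.27) and a LEAF RUST 10 receptor-like kinase gene (Jr8SG00085600, 0.28). A protein phosphatase 2C 60 gene (Jr4SG00005800) and a heavy metal-associated protein gene (Jr3SG00132700) both lay at 0.29.

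Profiles near the steeper genes were farther off, and the stage means of these genes spanned 8.17 (DC-8-like) and 10.44 (seed maturation protein) on the log2(scaled CPM + 1) scale, against 2.99 for ERD14 and 3.57 for dehydrin 2. Nearest to the DC-8-like gene were an aluminum-activated malate transporter (Jr7DG00131900, 0.56), a poly(ADP-ribose) polymerase (Jr7DG00140400, 0.62), ERF039-like (Jr2DG00011000, 0.64), a mannitol dehydrogenase (Jr4SG00142700, 0.67) and a gene named At2g42560 (Jr2DG00174700, 0.68). Nearest to the seed maturation protein were a 48-kDa glycoprotein precursor (Jr4SG00109000, 0.86), an aldehyde dehydrogenase (Jr2SG00168900, 0.92), a PCC13-62 desiccation-related protein (Jr4DG00117100, 1.01), oil body-associated protein 1A (Jr1SG00075800, 1.11) and a SWEET10-like sugar transporter (Jr6SG00012100, 1.17). Oil body-associated protein is one of the product names by which the kernel list was defined, so a gene of kernel type is among these nearest profiles. The DC-8-like and seed maturation protein genes lay 1.40 from each other, and each lay at least 1.96 from both dehydrins.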

How the data were processed

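Pellicle RNA was sequenced as paired-end, stranded mRNA libraries, per the labels' protocols, which speak of 16 libraries where 21 are labelled. Per the submitters' processing notes, the tools were FastQC, HISAT2, Cufflinks and DESeq2. The read counter, use of strand and genome build were not given in the sources used here. The deposited table holds raw read counts per gene, and FPKM that the authors derived from them by length and column total, which recomputed within a relative deviation of 5.22e-15. None of its IDs matched the reference gene table (0 matches), so no sequences are shown.

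Counts were fitted in R 4.3.3 (edgeR 4.0.16, limma 3.58.1), using filterByExpr by stage (minimum count 10), TMM factors (0.880 to 1.143), 1 coefficient per stage, robust quasi-likelihood, 2-sided contrasts and Benjamini-Hochberg adjustment at 0.05. The script was tested on simulated data. Standard errors are the log2 change over the square root of F. DESeq2 1.42.0, other scalings and filters, a replicate block and single libraries left out were alternatives. Where a stage had 0 reads, folds are bounds against 3 reads per library. With 1 to 3 reads, ratios have exact Poisson 95% intervals, which cover counting error only.

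The 4 genes and all lists were chosen with earlier results of these data known. Lists (dehydrin and LEA, desiccation, abscisic acid regulators, cold and drought regulators, protectants, kernel, seed coat) match product names. Partial matches, such as GEM-like proteins, were removed after the table was seen. The text names the listed dehydrin and LEA genes reaching 10 scaled CPM, the 4 most-read genes of each other list and the 5 nearest profiles per gene.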

Additional observations from a re-analysis of the deposited data

How the results depend on the processing

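Of 123 values under alternatives other than leaving out a library, 98 stayed within the spread between libraries or within 1.5 times the main count, 25 moved and 0 changed sign. Upper-quartile factors and library sizes alone gave log2 changes at 19W against 8W of 2.33 and 2.20 for ERD14 and 3.12 and 2.99 for dehydrin 2. The same 2 scalings moved the median of all genes to -0.22 and -0.34. At 19W they gave 1628 and 1546 scaled CPM for ERD14, and 1534 and 1457 for the seed maturation protein. For the DC-8-like gene no log2 change against 8W was recomputed, since 8W had 0 reads.

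The list of other dehydrin and LEA genes was redefined in 3 ways after the data were seen. By Pfam family (11 genes, 10 tested), 10 changed over stages, 10 rose and 0 fell at 19W against 8W, and 9, 6, 5, 5 and 9 changed at the successive steps from 11W on. Without LEA_2-type genes (13 genes, 12 tested), 11 changed, 10 rose and 1 fell at 19W against 8W, and against the stage before, 5 changed (9W), 9 (11W), 5 (13W), 7 (17W) and 10 (19W). These lists are shorter, so smaller counts follow from their construction. With partial name matches left in (37 genes, 28 tested), 17 changed at 13W against 11W, against 10.

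Leaving out 1 library gave log2 changes at 19W against 8W of 2.49 to 2.53 for ERD14, 3.22 to 3.35 for dehydrin 2 and 12.48 to 13.97 for the seed maturation protein. At 19W the levels were 1734 to 1748, 1185 to 1320, 1606 to 1676 and, for the DC-8-like gene, 264 to 299 scaled CPM. Among the other genes, 20 changed over stages, 17 rose and 2 fell at 19W against 8W in every such fit. Against the stage before, 7 to 9 changed (9W), 13 to 16 (11W), 8 to 14 (13W), 10 to 11 (15W), 7 to 11 (17W) and 16 to 18 (19W). The cause of the drop from 14 at 17W was not tested.

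With the replicate number as a block, log2 changes were 2.54, 3.33 and 13.08 for ERD14, dehydrin 2 and the seed maturation protein. The counts of other genes were 20 over stages, 17 that rose and 2 that fell at 19W against 8W, and 12 against 14 at 17W against 15W. Libraries with the same number did not deviate together: 0 of 63 pairs had a correlation over 0.1, and 10 of 21 libraries correlated best with their own number, so numbers were not taken as pairs.

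Depth limits the 8W and 9W values of the steep genes: 3 reads per library correspond to 0.173 to 0.191 scaled CPM at 8W.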
